A study of Homo sapiens with 12 samples.

Results

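The genes described here encode the subunits of the hypoxia-inducible factors (HIFs): HIF1A (HIF-1α), EPAS1 (HIF-2α) and HIF3A (HIF-3α) for the α subunits, and ARNT (HIF-1β) and ARNT2 for the β subunits. They were taken from the count tables by symbol, and all 5 were found among 23106 listed genes. The cells were RCC4, an established clear cell renal cell carcinoma (ccRCC) line without functional VHL, grown in standard oxygen, so that all groups share the VHL loss and come from 1 line. Cells were transfected for 48 h with siPOOLs, pools of small interfering RNAs (siRNAs), at 2 nM in total. The control siRNA group received 2 nM of control siPOOL, the HIF1A siRNA group 1 nM against HIF1A with 1 nM of control, the HIF2A siRNA group 1 nM against EPAS1 with 1 nM of control, and the double knockdown 1 nM of each HIF siPOOL. There were 3 replicates per group and 12 polyA RNA-seq libraries, and the question was how far each siRNA removed its target and whether the other subunit mRNAs moved with it.

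A HIF is a dimer of an oxygen-regulated α subunit and a constitutively expressed β subunit, both of the bHLH-PAS family of transcription factors. In oxygen, prolyl hydroxylases (the EGLN enzymes) mark the α subunit, the VHL ubiquitin ligase recognises the mark, and the protein is degraded. Cells that have lost VHL, as in most ccRCC, keep HIF-1α and HIF-2α protein without hypoxia. The siRNAs act on the mRNA, and mRNA is what was measured here.

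The libraries held 13263168 to 20451433 counted fragments. The 7 renal epithelial and ccRCC markers (PAX8, PAX2, KRT8, KRT18, CDH6, CA9 and VIM) were detected and summed to 4050 to 6793 CPM (counts per 1000000 counted) per library, of which VIM alone, a marker many cultured cells express, gave 2927 to 5433 CPM. PAX8, which marks renal epithelium, was at 197.3 to 315.1 CPM, and CA9 moved with the groups. CA9 was at 226.1 ± 73.2 CPM in control siRNA, 18.7 ± 8.69 CPM with HIF1A siRNA, 304.5 ± 104.0 CPM with HIF2A siRNA and 13.0 ± 5.43 CPM in the double knockdown. The 4 immune markers summed to 0.375 to 2.23 CPM with PTPRC and CD3E at 0 in every library, the 4 endothelial markers to 0 to 0.432 CPM with PECAM1 at 0, and the 4 pericyte or smooth muscle markers, of which none was at 0 throughout, to 14.8 to 28.3 CPM. Levels below are CPM scaled by edgeR's TMM factors. Because mRNA was measured in bulk, fewer cells holding an mRNA and less of it per cell cannot be told apart.

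The promoter sequences of HIF1A, EPAS1 and ARNT are shown because each encodes a subunit of the factors that were depleted, and HIFs bind the core element that is spelled ACGTG or GCGTG. The stretches are from RefSeq (GRCh38.p14), run 5′ to 3′ on the gene's strand and end at the listed start site, except for ARNT, for which only the 141 bases outside every GENCODE exon of the gene are printed. Capitals mark GCGTG, the spelling found, and both spellings were searched on both strands.
HIF1A, chr14:61695263-61695512 (+): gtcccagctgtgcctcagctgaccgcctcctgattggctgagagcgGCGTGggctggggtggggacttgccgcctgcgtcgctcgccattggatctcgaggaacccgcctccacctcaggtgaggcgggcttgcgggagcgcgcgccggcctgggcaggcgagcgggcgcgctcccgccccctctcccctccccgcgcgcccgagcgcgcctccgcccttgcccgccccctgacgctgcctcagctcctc
EPAS1, chr2:46297157-46297406 (+): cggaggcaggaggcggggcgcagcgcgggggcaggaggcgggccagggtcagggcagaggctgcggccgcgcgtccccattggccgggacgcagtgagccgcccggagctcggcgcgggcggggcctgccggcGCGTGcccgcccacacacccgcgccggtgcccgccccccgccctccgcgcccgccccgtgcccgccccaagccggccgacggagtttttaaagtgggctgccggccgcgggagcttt
ARNT, chr1:150876709-150876849 (-): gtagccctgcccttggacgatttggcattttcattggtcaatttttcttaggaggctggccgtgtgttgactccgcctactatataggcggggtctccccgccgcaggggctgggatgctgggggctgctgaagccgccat
The HIF1A and EPAS1 windows printed here each held 1 GCGTG, 204 and 117 bases before the start site, and neither held ACGTG. The full 250-base ARNT window held neither spelling, nor did a second window listed for HIF1A (chr14:61697462-61697711), which is not printed. Of 35116 promoter windows of this length, 43.2% held either spelling on either strand, 32.2% GCGTG and 18.5% ACGTG, so a match was common. The EPAS1 window lies within the longest annotated span of the gene, upstream of the start site RefSeq lists. The HIF3A windows are not printed. The one at chr19:46296792-46297041 held 3 GCGTG, where 19.4% of all windows held 2 or more matches of either spelling, and its other windows held neither spelling. ARNT2 had no entry in the promoter table.

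The genes lie on separate chromosomes. In GRCh38 with GENCODE v44, HIF1A spans 61695513 to 61748259 on the plus strand of chromosome 14, EPAS1 46293667 to 46386697 on the plus strand of chromosome 2, HIF3A 46297042 to 46343433 on the plus strand of chromosome 19, ARNT 150809713 to 150876708 on the minus strand of chromosome 1, and ARNT2 80404350 to 80597933 on the plus strand of chromosome 15. The counts themselves were made on hg19. HIF1A overlaps HIF1A-AS1, HIF1A-AS2 and HIF1A-AS3, ARNT2 overlaps ARNT2-AS1, ARNT2-AS3, LOC124903537 and MIR5572, HIF3A overlaps RNU6-924P and ARNT overlaps RNU6-1309P. None of these 9 overlapping genes was analysed here, and whether strand was used in counting is not given in the sources used here, so reads from antisense RNAs cannot be told apart from those of HIF1A or ARNT2.

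The longest identical stretch within each of some gene pairs is shown because both siRNAs and read assignment depend on shared sequence. They were found by comparing the canonical transcript of each gene.
HIF1A and EPAS1, 13 bases: tgaaagccttgga
ARNT and ARNT2, 17 bases: tatgtgtctgactccgt
EPAS1 and HIF3A, 25 bases: tggacatgaagttcacctactgtga
HIF1A and EPAS1, the targets of the siRNAs, shared no stretch of 19 bases, and neither did ARNT and ARNT2. EPAS1 and HIF3A shared 7 overlapping stretches of 19 bases. Among pairs not printed, HIF3A and ARNT shared up to 19 bases and HIF1A and HIF3A up to 18. The siPOOL sequences themselves were not analysed here.

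mRNA for 4 of the 5 subunits was abundant enough to test, and HIF3A was not. HIF3A gave 0, 1 and 0 counts in control siRNA replicates 1 to 3, 1, 3 and 0 in HIF2A siRNA, and 0 in all 6 libraries that received HIF1A siRNA. A count of 0 allows up to 0.147 to 0.226 CPM in these libraries (3 counts; counting error only), so HIF3A was at or below that floor throughout and no fold change is given. It was removed by the low-count filter, and every test below covers the other 4 genes.

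In control siRNA cells the α subunit mRNAs were more abundant than the β subunit mRNAs. Per kilobase of canonical transcript, EPAS1 stood at 30.5 ± 3.28 CPM (SD, n = 3) and HIF1A at 24.5 ± 8.51, against 7.57 ± 1.47 for ARNT and 5.63 ± 1.88 for ARNT2. Every EPAS1 library (26.8 to 33.2) and every HIF1A library (14.7 to 30.5) lay above every ARNT library (6.02 to 8.95) and ARNT2 library (4.18 to 7.75). The ranges of EPAS1 and HIF1A overlapped, as did those of ARNT and ARNT2, so the order within each pair lies within the spread between replicates.

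**Figure D1:**
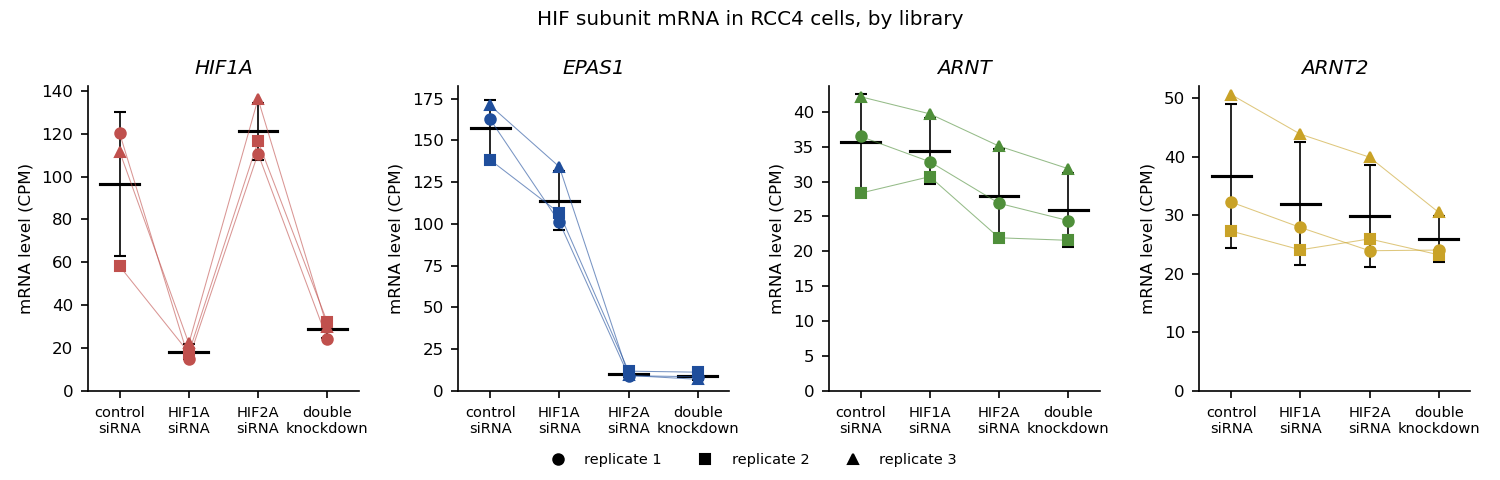
mRNA level in CPM (y axis, from 0, own scale per panel) of HIF1A, EPAS1, ARNT and ARNT2 in the 4 siRNA groups; symbols are the replicates, joined by number, bars are the mean and whiskers the SD (n = 3). HIF1A was 14.99 to 32.2 CPM in the 6 libraries with HIF1A siRNA and 58.2 to 136.2 in the others, EPAS1 was 7.01 to 11.9 in the 6 libraries with HIF2A siRNA and 101.1 to 170.9 in the others, and each line of ARNT and ARNT2 ends lower in the double knockdown than it starts in control siRNA.

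HIF1A, the α subunit of HIF-1, fell to about 19.3% of its control level with its own siRNA. Its level was 120.2, 58.2 and 111.6 CPM in control siRNA replicates 1, 2 and 3, and 14.99, 17.8 and 22.2 CPM with HIF1A siRNA. All 3 pairs were lower, at 12.5%, 30.6% and 19.9% of control, and the groups did not overlap. The control library of replicate 2 was the low one, which made its pair the weakest. The fitted log2 change was -2.37 ± 0.21 (SE), with an adjusted p of 4.26e-05 (edgeR's quasi-likelihood test, Benjamini-Hochberg over 12830 genes). HIF1A was the only 1 of the 4 tested subunits called in this comparison, in which 1.17% of all tested genes passed. Without any 1 library or replicate number, its log2 change stayed between -2.66 and -2.03 and was called each time.

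EPAS1 lay lower with HIF1A siRNA too, in every pair, but did not pass the test. Its level was 162.6, 138.3 and 170.9 CPM in control siRNA and 101.1, 106.6 and 134.2 CPM with HIF1A siRNA. All 3 HIF1A siRNA libraries lay below all 3 controls, at 62.2%, 77.1% and 78.5% of their pairs. The log2 difference was -0.47 ± 0.15 (SE; unadjusted p = 0.00749, adjusted p = 0.28 by edgeR), and 11.1% of all tested genes differed by at least as much. It passed at an adjusted p of 0.0492 in 1 of 19 alternative fits, the one without HIF2A siRNA replicate 2, and the adjusted p over these fits ran up to 1.00.

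ARNT and ARNT2 did not pass with HIF1A siRNA. The log2 differences were -0.04 ± 0.13 for ARNT and -0.20 ± 0.13 for ARNT2 (adjusted p = 0.981 and 0.871). A normal approximation from the SE gave nominal 95% intervals from -0.30 to 0.22 and from -0.46 to 0.07. Such intervals are too narrow for the edgeR test. That of ARNT2 with HIF2A siRNA excluded 0 (-0.536 to -0.00704) at an unadjusted p of 0.0661 (edgeR). ARNT2 lay at 86.6%, 88.3% and 86.7% of control in the 3 pairs, a narrow spread on the lower side, while ARNT ran from 90.1% to 108.3%. A small fall of either β subunit mRNA could not be told from no fall at this precision.

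EPAS1, the α subunit of HIF-2, fell to 6.48% of control with HIF2A siRNA, the largest fall of all 12830 genes tested there. The HIF2A siRNA libraries held 9.16, 11.9 and 9.33 CPM, against the 138.3 to 170.9 CPM of the controls. Within pairs 5.63%, 8.60% and 5.46% remained, and the groups were far apart. The log2 change was -3.95 ± 0.17 (SE; adjusted p = 1.43e-07, edgeR). It was 1 of the 4 tested subunits called, in a comparison in which 0.0857% of genes passed. Less EPAS1 mRNA than HIF1A mRNA was left by the respective siRNA, by the percentages of control, although that difference was not tested.

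HIF1A with HIF2A siRNA was at 110.7, 116.5 and 136.2 CPM. The pairs stood at 92.2%, 200.1% and 122.0% of control, so 2 of 3 were higher and the groups overlapped. The log2 difference of 0.37 ± 0.20 did not pass (adjusted p = 0.931) and rested largely on control replicate 2, since without the replicate 2 libraries it was 0.07.

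ARNT, the shared partner of both α subunits, lay lower with HIF2A siRNA in all 3 pairs. It was at 36.5, 28.3 and 42.2 CPM in control siRNA and 26.9, 21.9 and 35.1 CPM with HIF2A siRNA. Within pairs it held 73.7%, 77.4% and 83.2% of control, although the unpaired ranges overlapped because replicate 3 was high and replicate 2 low in both groups. The log2 difference was -0.35 ± 0.13 (unadjusted p = 0.0201, adjusted p = 0.816) and so did not pass in this comparison. ARNT2 also lay lower in 3 of 3 pairs, at 74.3%, 95.1% and 78.9%, with a log2 difference of -0.27 ± 0.14 (adjusted p = 0.931).

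**Figure D2:**
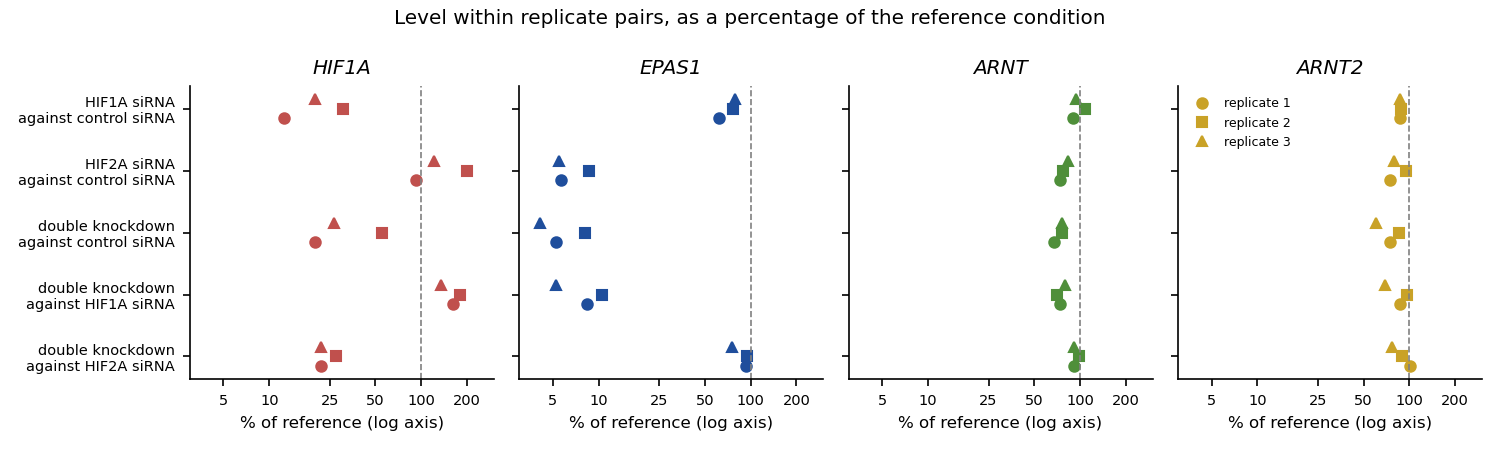
Level of each subunit mRNA within a replicate pair, as a percentage of the reference group (x axis, log scale; dashed line at 100%), for 5 comparisons (rows); symbols are the replicates. The knockdowns sit far to the left (4.10% to 10.6% for EPAS1 and 12.5% to 55.3% for HIF1A), while ARNT sits at 66.9% to 83.2% in the 3 comparisons that differ by HIF2A siRNA or by both siRNAs.

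With both siRNAs, all 4 tested subunit mRNAs were lower than in control siRNA cells, and all 4 passed the test, where 10.3% of all tested genes passed. HIF1A and EPAS1 are the siRNA targets, so only the calls of ARNT and ARNT2 concern subunits that were not targeted. EPAS1 was at 8.54, 11.3 and 7.01 CPM, 5.61% of control (log2 change -4.15 ± 0.19, adjusted p = 3.78e-09, edgeR over 13000 genes). HIF1A was at 24.2, 32.2 and 29.7 CPM, 30.1% of control (-1.73 ± 0.21, adjusted p = 8.10e-05, edgeR). Within pairs 20.1%, 55.3% and 26.6% of the HIF1A control level remained. The 2 targets were thus lowered again, HIF1A less completely than EPAS1 by these percentages. Leaving out single libraries or replicate numbers moved the HIF1A change between -2.12 and -1.41 and the EPAS1 change between -4.42 and -3.94, with every fit calling both.

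The β subunits, which neither siRNA targets, fell to 72.7% (ARNT) and 72.5% (ARNT2) of control in the double knockdown. ARNT was at 24.4, 21.6 and 31.8 CPM, 66.9%, 76.1% and 75.5% of control within pairs. Its log2 change was -0.46 ± 0.12 (SE; adjusted p = 0.0215, edgeR), lower in 3 of 3 pairs. ARNT2, the second β subunit, which is best known from neurons and kidney, was at 32.2, 27.3 and 50.6 CPM in control siRNA and at 24.1, 23.2 and 30.5 CPM in the double knockdown. It held 74.6%, 85.1% and 60.3% of control, a log2 change of -0.46 ± 0.13 (adjusted p = 0.0355). Falls of this size were not rare, since 21.8% and 21.5% of all tested genes differed at least as much as ARNT and ARNT2. Both calls depended on pairing the libraries by replicate number, because without the replicate block the adjusted p was 0.519 for ARNT and 0.62 for ARNT2. They were also lost in 7 and 9 of the fits that left out a library or replicate number, which put ARNT at -0.50 to -0.41 and ARNT2 at -0.58 to -0.33.

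Comparisons of the double knockdown with each single knockdown give the effect of 1 siRNA in the presence of the other. Adding HIF2A siRNA to HIF1A siRNA lowered EPAS1 to 7.77% (log2 change -3.69 ± 0.18, adjusted p = 6.74e-08, edgeR), 1 of 4 subunits called where 1.4% of genes passed. HIF1A was higher in the double knockdown than with HIF1A siRNA in all 3 pairs, at 161.5%, 180.5% and 134.1%, and the groups did not overlap (24.2 to 32.2 against 14.99 to 22.2 CPM). This difference, 0.66 ± 0.21 on the log2 scale, did not pass across 12 libraries (unadjusted p = 0.00745, adjusted p = 0.182). It did pass in the fit of the 6 compared libraries alone (0.65, adjusted p = 0.00266) and without control replicate 2 (0.64, adjusted p = 0.0348), and over 21 alternatives the adjusted p ran from 0.00266 to 1.00. Both groups received 1 nM of HIF1A siPOOL, but the other 1 nM was control siPOOL in one and HIF2A siPOOL in the other. How much of the HIF1A mRNA left in each group escaped the siRNA was not tested.

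ARNT was also lower in the double knockdown than with HIF1A siRNA in 3 of 3 pairs, at 74.3%, 70.3% and 80.2%, with HIF1A siRNA libraries at 32.8, 30.7 and 39.7 CPM. The log2 difference of -0.42 ± 0.12 did not pass (adjusted p = 0.109), but did so narrowly in the fit of the 6 compared libraries (adjusted p = 0.048) and without HIF2A siRNA replicate 2 (adjusted p = 0.0485). ARNT2 stood at 86.2%, 96.5% and 69.5% (-0.27 ± 0.13, adjusted p = 0.439).

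Adding HIF1A siRNA to HIF2A siRNA lowered HIF1A to 23.8% (log2 change -2.07 ± 0.21, adjusted p = 2.15e-05, edgeR), again 1 of 4 subunits called, where 4% of genes passed. Neither β subunit passed here, with ARNT at 90.8%, 98.4% and 90.8% (-0.10 ± 0.12, adjusted p = 0.681) and ARNT2 at 100.5%, 89.5% and 76.4% (-0.18 ± 0.13, adjusted p = 0.495). The remaining EPAS1, 8.54, 11.3 and 7.01 against 9.16, 11.9 and 9.33 CPM, was at 93.3%, 94.8% and 75.2% (-0.19 ± 0.19, adjusted p = 0.624).

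Because both siRNAs were given alone and together, each effect can be averaged over the presence of the other, which uses all 12 libraries. This average was added after the single comparisons had been seen, and shares their libraries. For HIF2A siRNA it called 2 of the 4 subunits, where 3.12% of all tested genes passed. These were EPAS1, which is the target of that siRNA, and ARNT, which is not. ARNT fell by 0.39 ± 0.08 on the log2 scale, to 76.5% (adjusted p = 0.0181, edgeR), and was lower in 6 of 6 pairs, while 11.9% of all tested genes differed by at least as much. That call too was lost without the replicate block (adjusted p = 0.756) and in 6 of the fits without a library or replicate number, with log2 values from -0.44 to -0.35. ARNT2 differed by -0.27 ± 0.09 (adjusted p = 0.143) and HIF1A by 0.50 ± 0.15, higher in 5 of 6 pairs (unadjusted p = 0.00386, adjusted p = 0.0855). HIF1A crossed the threshold under 3 of 20 alternatives, DESeq2 among them (0.50, adjusted p = 0.0195), and its adjusted p ran from 0.00757 to 0.637.

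For HIF1A siRNA the average called 1 of the 4 subunits, HIF1A itself (log2 change -2.23 ± 0.15, adjusted p = 1.35e-07, edgeR), where 6.75% of genes passed. EPAS1 differed by -0.33 ± 0.12 (unadjusted p = 0.0165, adjusted p = 0.131) and passed under none of 20 alternatives, with adjusted p from 0.0555 to 0.563. ARNT differed by -0.07 ± 0.08 and ARNT2 by -0.19 ± 0.09 (adjusted p = 0.645 and 0.248). That ARNT passed for the HIF2A siRNA and not for the HIF1A siRNA does not show that the siRNAs differ in their effect on it, a difference that was not tested.

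Whether the effect of one siRNA depended on the other was asked with the interaction term. It called 0 of the 4 subunits and 0% of the 13000 genes by edgeR, of which 318 had an unadjusted p under 0.05, while DESeq2 called 11 genes. The interaction was 0.32 ± 0.29 for HIF1A, 0.28 ± 0.24 for EPAS1, -0.06 ± 0.16 for ARNT and 0.02 ± 0.18 for ARNT2, each with an adjusted p of 0.999.

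**Figure D3:**
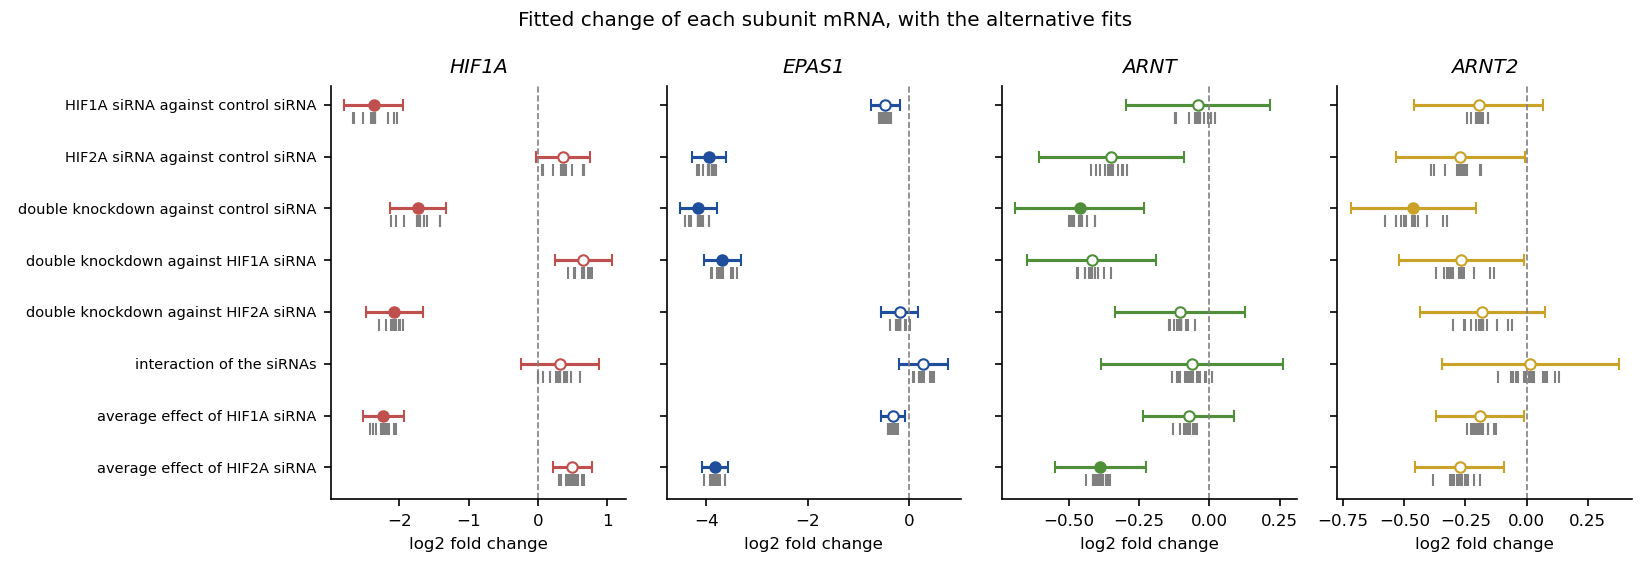
Fitted log2 fold change (x axis, own scale per panel) of each subunit mRNA. Rows are the 5 comparisons, the interaction and the 2 averaged siRNA effects. Circles are the fits, filled where the adjusted p was under 0.05, and grey ticks are the alternative fits. The intervals are nominal 95% intervals by a normal approximation from the SE, and are too narrow for the edgeR test. In the rows where a gene was targeted its ticks stay far from 0, whereas ARNT is filled in 2 rows and ARNT2 in 1, and their ticks lie between -0.58 and 0.13.

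The siRNAs changed the make-up of the subunit mRNA pool. Summed per kilobase over HIF1A, EPAS1, ARNT and ARNT2, the level was 68.2 ± 14.3 CPM per kb in control siRNA, 39.0 ± 6.80 with HIF1A siRNA, 43.2 ± 5.83 with HIF2A siRNA and 18.5 ± 1.83 in the double knockdown (SD, n = 3). EPAS1 made up 45.5% of this sum in control siRNA and 56.9% with HIF1A siRNA, but 4.62% with HIF2A siRNA, in which HIF1A made up 71.2%. The ratio of EPAS1 to HIF1A moved accordingly from 1.34 ± 0.42 to 4.79 ± 0.32 with HIF1A siRNA and to 0.0646 ± 0.013 with HIF2A siRNA. In the double knockdown it was 0.24 ± 0.051.

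The α to β balance moved with the knockdown of the α subunits. Per length there were 4.21 ± 0.62 α subunit mRNAs (HIF1A and EPAS1) for each β subunit mRNA (ARNT and ARNT2) in control siRNA, 2.21 ± 0.22 with HIF1A siRNA, 3.18 ± 0.50 with HIF2A siRNA and 0.976 ± 0.26 in the double knockdown. In the last group the 2 kinds were thus about equally abundant, with libraries from 0.778 to 1.27. Over ARNT alone the ratio was 7.26 ± 0.65, 3.66 ± 0.27, 5.65 ± 1.04 and 1.69 ± 0.50 in the same order. Each of these quantities contains HIF1A or EPAS1, the siRNA targets, so its change largely restates the knockdowns given above. All differed from control siRNA in the same direction in 3 of 3 pairs. The exact permutation p (two-sided, 3 against 3, without the pairing) was 0.1 in each of 12 comparisons, the smallest this design allows. It was 0.1 after adjustment over them. These tests were run on levels with 0.5 CPM added and on the log2 scale for the ratios. Without the 0.5 CPM, as printed here, the ratio to both β subunits with HIF2A siRNA reached 3.684 and overlapped the lowest control value of 3.678, with an exact permutation p of 0.2. The fall of the β subunit mRNAs was small beside that of the α subunits, and these are ratios of mRNA, not of protein.

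**Figure D4:**
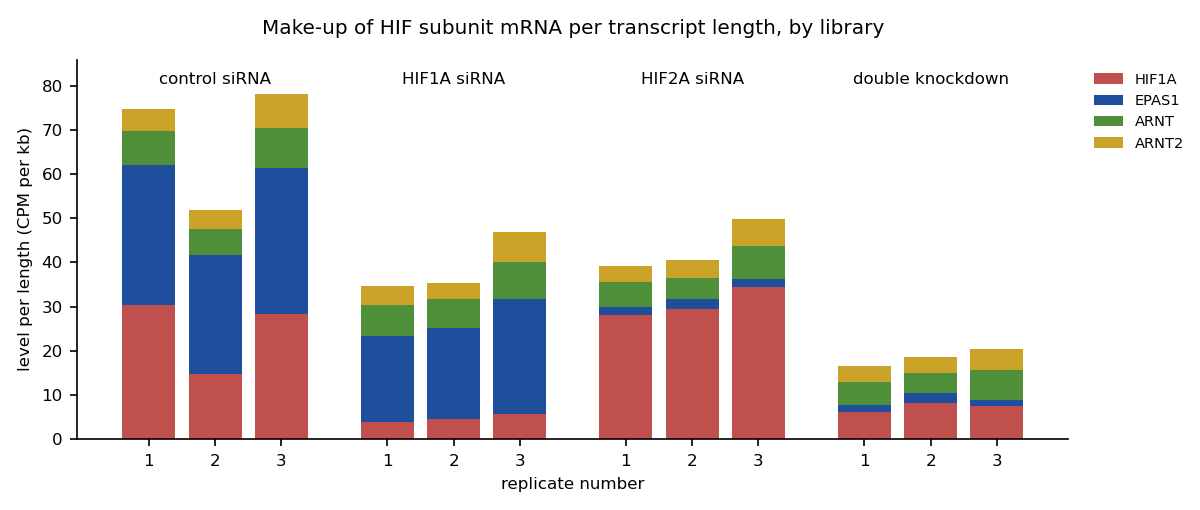
Stacked level per transcript length (y axis, CPM per kb, from 0) of HIF1A, EPAS1, ARNT and ARNT2 in each of the 12 libraries, ordered by siRNA group and replicate number. The EPAS1 segment almost disappears with HIF2A siRNA and the HIF1A segment shrinks with HIF1A siRNA, and the whole bar drops from 51.8 to 78.1 in control siRNA to 16.7 to 20.3 in the double knockdown.

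The other members of the bHLH-PAS family include possible partners and competitors of ARNT. Of 14 in the count tables, 10 were abundant enough to test in the single knockdown comparisons, where 0 passed by edgeR. Over all tested genes 1.17% and 0.0857% passed there. An unadjusted p under 0.05 (edgeR) was found for 1 of 10 with HIF1A siRNA and 2 of 10 with HIF2A siRNA, against 940 and 690 of all 12830 genes. DESeq2 called 0 with HIF1A siRNA and AHR with HIF2A siRNA, where it called 236 and 58 genes in all. In the double knockdown 3 of 11 passed against control siRNA, 2 lower and 1 higher, where 10.3% of all tested genes passed, with a median log2 difference over the 11 of -0.09 against 0.00 over all genes. AHR, the dioxin receptor, which dimerises with ARNT, was at 62.3, 51.8 and 78.2 CPM in control siRNA and 33.4, 33.4 and 46.4 CPM in the double knockdown, with no overlap (-0.76 ± 0.11, adjusted p = 0.000503). With HIF2A siRNA alone it was at 40.4, 30.0 and 48.3 CPM (-0.69 ± 0.12, adjusted p = 0.0643) and with HIF1A siRNA alone at 59.1, 57.8 and 84.2 CPM (0.07 ± 0.12, adjusted p = 0.962).

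AHRR, the repressor of AHR, rose in the double knockdown from a low level. It was at 1.29, 1.56 and 0.868 CPM in control siRNA and at 6.01, 4.81 and 3.89 CPM in the double knockdown (2.03 ± 0.35, adjusted p = 0.00174), and its counts ran from 14 to 119 over the 12 libraries. ARNTL2, a circadian partner of CLOCK, fell from 151.2, 116.0 and 224.0 CPM to 105.0, 79.9 and 158.4 CPM (-0.52 ± 0.11, adjusted p = 0.00728). Against HIF1A siRNA the double knockdown called AHR (-0.83 ± 0.11, adjusted p = 0.00114) and AHRR (1.58 ± 0.34, adjusted p = 0.0337), 2 of 11 where 1.4% of all genes passed, and DESeq2 called 3 there (AHR, AHRR and ARNTL2). Against HIF2A siRNA 0 of 11 passed, where 4% of all genes did, and 0 were called by DESeq2. There 3 of 11 had an unadjusted p under 0.05 (edgeR), as did 2317 of all 13000 genes. How many genes DESeq2 called in all against each single knockdown is given in the closing section. Without the replicate block the adjusted p of AHR against control siRNA was 0.186 and that of ARNTL2 0.636, while AHRR passed (0.039), and against HIF1A siRNA both AHR (0.61) and AHRR (0.514) lost their calls. The averaged HIF2A siRNA effect, added after the data had been seen, called 3 of 11 by edgeR, where 3.12% of all genes passed. These were AHR (-0.76 ± 0.08, adjusted p = 7.35e-05), AHRR (1.33 ± 0.25, 0.00791) and ARNTL2 (-0.33 ± 0.08, 0.0325). All 3 were lost without the replicate block (adjusted p = 0.171, 0.198 and 0.999). The averaged HIF1A siRNA effect called 0 of 11, where 6.75% passed. CLOCK, which had the highest CPM in control siRNA of the genes of this family that were not called (65.3 ± 18.3, not corrected for length), stood at a log2 difference of -0.22 in the double knockdown (adjusted p = 0.263).

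Genes whose products act on the α subunits were mostly not called. Of 23 in the count tables, 22 were tested by edgeR. With HIF1A siRNA 1 passed, with HIF2A siRNA 0, and in the double knockdown 4, 3 lower and 1 higher. Over all tested genes 1.17%, 0.0857% and 10.3% passed in these comparisons. The median log2 difference of the 22 was 0.00, 0.07 and 0.06 in these comparisons, against 0.00, 0.01 and 0.00 over all genes. With HIF2A siRNA, 1 of the 22 had an unadjusted p under 0.05 (edgeR), as did 690 of all 12830 genes. DESeq2 called 0 of the 22 there. The gene called most often was EGLN3, the prolyl hydroxylase PHD3, which was at 91.3, 102.3 and 87.5 CPM in control siRNA and 55.9, 64.6 and 47.2 CPM with HIF1A siRNA (-0.75 ± 0.12, adjusted p = 0.00699). With HIF2A siRNA it was at 71.6, 94.3 and 80.0 CPM (-0.19 ± 0.12, adjusted p = 0.942). In the double knockdown it was at 24.1, 25.1 and 16.0 CPM, below every other library (-2.12 ± 0.13, adjusted p = 1.20e-07).

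EGLN3 in the double knockdown lay below the sum of both single effects, with an interaction of -1.18 ± 0.18 log2 units that just missed the threshold by edgeR (adjusted p = 0.0649) and was called by DESeq2. Of the 22 regulators 1 had an unadjusted p under 0.05 for the interaction (edgeR), as did 318 of all 13000 genes. Over all genes edgeR called 0 for this term and DESeq2 called 11. Against each single knockdown EGLN3 also passed, at -1.37 ± 0.13 against HIF1A siRNA (adjusted p = 5.19e-05) and -1.93 ± 0.13 against HIF2A siRNA (adjusted p = 4.33e-07). These 3 calls of EGLN3 in the double knockdown were made in all 21 alternative fits, and its call with HIF1A siRNA in 14 of 19, with log2 values from -0.81 to -0.67. Without the replicate block that call was among those lost (adjusted p = 0.236).

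EGLN1, the main oxygen-sensing prolyl hydroxylase PHD2, fell in the double knockdown against control siRNA, from 242.5, 208.6 and 234.0 CPM to 167.8, 138.6 and 200.9 CPM (-0.45 ± 0.12, adjusted p = 0.0279), and against HIF2A siRNA (-0.58 ± 0.12, adjusted p = 0.0125). With HIF1A siRNA alone it was at 139.4, 163.7 and 190.2 CPM, below every control library, and did not pass (-0.48 ± 0.13, adjusted p = 0.128), while DESeq2 called it. PKM, the glycolytic pyruvate kinase reported as a HIF-1 coactivator, also fell in the double knockdown against control siRNA and against HIF2A siRNA (-0.51 ± 0.10 and -0.55 ± 0.10, adjusted p = 0.00458 and 0.00503). Without the replicate block these double knockdown calls were lost, at adjusted p of 0.34 and 0.286 for EGLN1 and 0.0948 and 0.146 for PKM. The HIF1A siRNA effect averaged over both backgrounds, added after the data had been seen, called 3 of 22 by edgeR, where 6.75% of all genes passed. These were EGLN1 (-0.53 ± 0.08, adjusted p = 0.00102), EGLN3 (-1.34, 1.70e-07) and PKM (-0.41, 0.00231). Without the block their adjusted p was 0.0551, 0.000209 and 0.0627. The averaged HIF2A siRNA effect called 1 of 22, EGLN3 (-0.78, adjusted p = 0.000197, and 0.0667 without the block), where 3.12% passed. CITED2, which competes with HIF for the coactivators p300 and CBP, rose in the double knockdown (0.46 ± 0.13, adjusted p = 0.036), from 268.1, 294.4 and 268.5 CPM to 403.1, 287.3 and 471.5 CPM. Replicate 2 of the double knockdown lay within the control range, and the CITED2 call was made in 10 of 21 alternative fits (adjusted p = 0.294 without the replicate block). VHL mRNA, from the gene this line lacks in functional form, was at 42.5 ± 1.33 CPM in control siRNA and differed by 0.11 in the double knockdown (adjusted p = 0.633). The regulators of highest CPM in control siRNA (not corrected for length) that were not called were HSP90AB1 (2714 ± 237.5 CPM) and HSP90AA1 (2562 ± 476.3 CPM), chaperones of the α subunits, at log2 differences of 0.13 and 0.06 in the double knockdown.

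**Figure D5:**
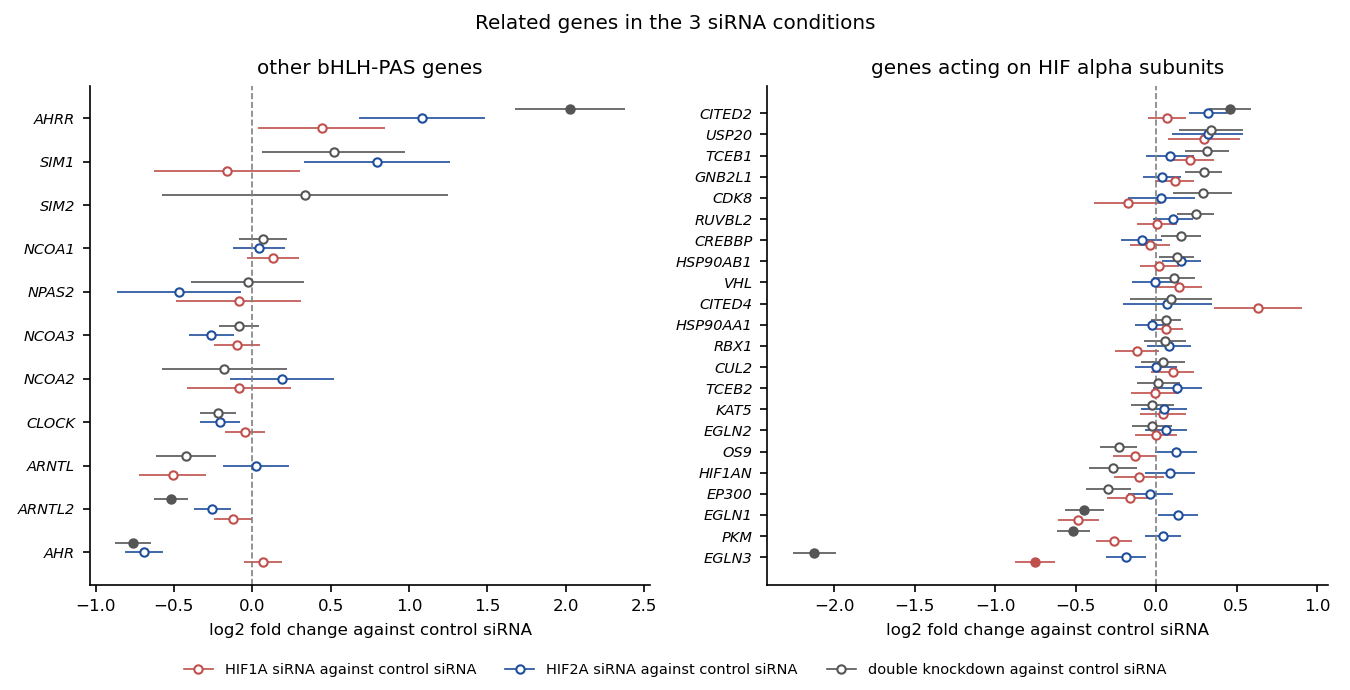
Log2 fold change against control siRNA (x axis) of the tested bHLH-PAS genes outside the HIF subunits (left) and of genes acting on the α subunits (right), for HIF1A siRNA (red), HIF2A siRNA (blue) and the double knockdown (grey); bars are ±1 SE and filled circles have an adjusted p under 0.05. AHRR (2.03) and EGLN3 (-2.12) stand apart from the other genes in the double knockdown.

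The genes whose level followed that of a subunit most closely were found by the root mean square (RMS) difference of log2 CPM over the 12 libraries, after removing the mean of each replicate number, among 12999 genes. For HIF1A they were PDK1 (RMS 0.288), NRN1 (0.356) and FAM162A (0.371), against a median of 1.17 over all genes. PDK1 had mean levels of 85.0, 19.2, 96.5 and 21.2 CPM in control siRNA, HIF1A siRNA, HIF2A siRNA and the double knockdown. FAM162A had 71.6, 19.6, 82.2 and 21.6 CPM, and NRN1 24.3, 4.17, 33.5 and 4.97 CPM. HIF1A itself had 96.7, 18.3, 121.1 and 28.7 CPM, so all of them were highest with HIF2A siRNA by mean.

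No gene followed EPAS1 closely. The nearest were SEMA5B (RMS 1.07), IRS2 (1.12) and F3 (1.12), whereas EPAS1's own RMS about its mean was 1.89. F3 was at 254.8, 178.3, 95.5 and 48.3 CPM in the 4 groups, a shallower fall than that of EPAS1, which was at 157.3, 113.9, 10.1 and 8.94 CPM. ARNT moved little, so that 496 genes lay within an RMS of 0.15 of it, of which LOC100129034 (0.0459), AP3M1 (0.0514) and PARN (0.0543) were nearest. Those values describe these libraries, which share their siRNA groups, and say nothing of shared control.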

How the data were processed

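RNA-seq count tables of 12 libraries of RCC4 cells were used, 1 table per library. Per the labels and the methods of the study, the authors trimmed adaptors with Trim Galore (0.3.3), aligned to GRCh37 (hg19) with HISAT2 (2.05), removed non-unique and duplicate fragments (Picard 2.0.1) and deposited raw counts per UCSC gene from HTSeq (0.5.4p3). Removal of duplicates can lower the counts of highly expressed genes.

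Counts were filtered (filterByExpr, 10 counts) and tested with edgeR 4.0.16 in R 4.3.3 (TMM, quasi-likelihood test, replicate number as block, Benjamini-Hochberg over all tested genes, threshold 0.05), after a check on simulated data. The single knockdowns were fitted on 9 libraries, without the double knockdown, and its comparisons on all 12. The study paired conditions by biological replicate, and deviations from the group means correlated by 0.0991 to 0.813 between libraries of the same number and by -0.724 to 0.527 between others. Replicates of a group differed beyond sampling noise, so none was merged. Percentages within pairs carry no pseudocount, and log2 ratios between genes use 0.5 CPM. The alternatives were other size factors, other count filters, no block, DESeq2 1.42.0, other sets of libraries and leaving out libraries. Members and gene lists were chosen with earlier results of these data known, and listed genes outside the subunits were named where they passed in a comparison, with those of highest level as examples. HIF1A-AS1, HIF1A-AS2 and HIF1A-AS3 were listed but not analysed here. Some listed cell type markers are not reported here.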

Additional observations from a re-analysis of the deposited data

How the results depend on the processing

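The changes of the targeted genes kept direction and call in each alternative of each comparison. Counts of called genes moved with the settings. For HIF1A siRNA (150 genes) they were 41 with no replicate block, 236 with DESeq2 and 66 to 219 without a library or replicate number. For HIF2A siRNA (11) they were 41 with no count filter, 1 with no block, 58 with DESeq2, 26 with all 12 libraries, 3 with only the 6 compared and 1 to 33 without a library. For the double knockdown against control siRNA (1336) they were 195 with no block, 2609 with only 6 libraries and 302 to 2307 without a library, the lowest without replicate 3 and the highest without HIF2A siRNA replicate 2. Against HIF1A siRNA (182) they were 8, 403 with DESeq2, 656 with only 6 libraries and 26 to 442. Against HIF2A siRNA (520) they were 90, 818, 164 and 158 to 672. The interaction (0) gave 4 genes with no filter, 11 with DESeq2 and 0 to 3 without a library. The averaged effects (878 and 405 genes), added after the data had been seen, gave 188 and 17 with no block, 672 with DESeq2 for HIF2A siRNA, and 312 to 987 and 46 to 787 without a library. With no replicate block, ARNT and ARNT2 in the double knockdown (-0.46 and -0.50) and ARNT in the averaged HIF2A siRNA effect (-0.38) lost their calls, and without single libraries they ran from -0.50 to -0.41, -0.58 to -0.33 and -0.44 to -0.35. Calls were gained by HIF1A (0.65) and ARNT (-0.42) against HIF1A siRNA with only 6 libraries, with ranges of 0.44 to 0.78 and -0.47 to -0.35 without a library. HIF1A in the averaged HIF2A siRNA effect gained one with no filter (0.50), with DESeq2 (0.50) and within 0.30 to 0.66 without a library, and EPAS1 with HIF1A siRNA within -0.59 to -0.35. Signs turned, near 0, for ARNT with HIF1A siRNA (-0.12 to 0.0198), EPAS1 in the double knockdown against HIF2A siRNA (-0.38 to 0.0116), and the interactions of HIF1A (-0.0021 to 0.61), ARNT (-0.13 to 0.0078) and ARNT2 (-0.12 to 0.13, -0.0012 with 10 counts in every library, -0.0088 with no block). The log2 ratio of α subunits to ARNT with HIF1A siRNA (-0.98) ran from -1.06 to -0.85, the weakest without replicate 1. Lengths of all exons in place of the canonical transcript, also added later, turned no ratio. The causes of these shifts were not tested. With 3 replicates, differences of the size seen for ARNT and ARNT2 lie at the limit of what these libraries resolve.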
